A study of Mus musculus with 6 samples.

Results

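The 10 genes described here encode proteins that supply, store and release fatty acids, with 2 transcription factors of fat cell differentiation: Lpl, Fabp5, Acsl1, Dgat1, Dgat2, Plin2, Pnpla2, Lipe, Pparg and Cebpd. They were chosen by name. Their probes were found by matching the transcript accession of each probe to RefSeq, which gave 14 of 56570 usable probes on the array, 3 for Lpl, 2 each for Plin2 and Acsl1, and 1 for each of the other 7 genes. All 10 genes were among the 44702 genes or unnamed transcripts of the array, and the brightest probe of each was well above background on all 6 arrays, so none was removed by the filter on dim probes.

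RNA came from NIH3T3 cells, an established mouse embryonic fibroblast line, in 2 groups. The GGCT-OE group (3 arrays) carried a pCX4bsr retroviral vector for stable expression of GGCT, gamma-glutamylcyclotransferase, an enzyme of glutathione breakdown. The group named empty (3 arrays) carried the control vector. Both groups grew in medium with 2% serum, and the labels name no adipogenic hormone mixture for either. The labels describe stable infected populations, name no clone and number the experiments 1 to 3, and they do not say whether each experiment had its own infection. The p-values therefore measure the spread between these experiments, which may be partly technical.

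Lipoprotein lipase, acyl-CoA synthetase, diacylglycerol acyltransferase and a perilipin coat act in sequence as fatty acids are released from lipoproteins, activated, esterified to triglyceride and stored in droplets. Adipose triglyceride lipase and hormone-sensitive lipase then act in turn to free them again. In fat cell precursors C/EBP-delta and C/EBP-beta are early factors and PPAR-gamma is the later master regulator, and Lpl, Plin2 and Acsl1 are known as target genes of PPAR factors. Fibroblasts keep small droplets as well, coated mainly by perilipin 2.

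Promoters are shown for 2 of the genes that were lower in GGCT-OE cells, Plin2 and Pparg, because the windows of these genes held at least 1 of the motifs searched. RefSeq promoter sequences (build GRCm38.p6, 250 bases before to 50 bases after a transcript start) were at hand for 5 of the 10 genes, with 9 starts in all: 1 each for Plin2 and Pnpla2, 2 each for Acsl1 and Lipe, and 3 for Pparg. The motifs, searched on both strands, were AGGTCA (the hexamer that nuclear receptors such as PPARs bind), the PPAR response element of DR1 type (a direct repeat of that hexamer with 1 base of any kind between its copies), CACGTG (an E-box) and TTGCNNAA (a C/EBP core). Capitals mark the matches, written as they read 5′ to 3′ on the strand of the gene.
Plin2, chr4:86670010-86670309, minus strand: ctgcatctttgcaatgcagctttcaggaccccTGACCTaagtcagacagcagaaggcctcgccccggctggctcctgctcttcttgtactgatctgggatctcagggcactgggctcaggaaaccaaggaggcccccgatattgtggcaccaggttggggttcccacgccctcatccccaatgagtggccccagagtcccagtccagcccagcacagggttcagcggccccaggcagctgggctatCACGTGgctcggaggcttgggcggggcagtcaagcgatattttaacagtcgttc
Pparg, start 1, chr6:115360894-115361193, plus strand: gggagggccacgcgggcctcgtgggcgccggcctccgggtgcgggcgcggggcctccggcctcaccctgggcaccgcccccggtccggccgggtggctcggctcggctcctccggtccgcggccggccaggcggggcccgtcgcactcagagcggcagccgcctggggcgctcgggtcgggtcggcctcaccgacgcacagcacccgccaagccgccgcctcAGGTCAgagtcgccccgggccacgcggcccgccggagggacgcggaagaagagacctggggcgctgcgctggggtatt
Pparg, start 2, chr6:115362099-115362398, plus strand: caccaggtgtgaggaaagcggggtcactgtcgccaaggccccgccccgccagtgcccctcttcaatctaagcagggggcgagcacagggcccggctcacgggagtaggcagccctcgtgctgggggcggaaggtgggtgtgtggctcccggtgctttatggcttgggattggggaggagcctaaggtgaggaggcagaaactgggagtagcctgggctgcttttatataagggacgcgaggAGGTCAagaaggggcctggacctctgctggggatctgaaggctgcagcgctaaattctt
Pparg, start 3, chr6:115421816-115422115, plus strand: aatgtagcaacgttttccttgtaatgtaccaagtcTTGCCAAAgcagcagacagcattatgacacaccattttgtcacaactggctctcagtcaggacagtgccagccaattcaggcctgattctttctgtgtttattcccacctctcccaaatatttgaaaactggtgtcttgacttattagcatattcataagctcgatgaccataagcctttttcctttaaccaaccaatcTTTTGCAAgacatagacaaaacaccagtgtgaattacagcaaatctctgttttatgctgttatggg

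The Plin2 window held 1 hexamer on the reverse strand, which began 218 bases before the start, and 1 E-box 4 bases before it. Pparg starts 1 and 2 held 1 hexamer each, 28 and 9 bases before the start, and start 3 held 2 C/EBP cores, 215 and 16 bases before it. Neither Acsl1 window held any of these motifs, and neither did the Pnpla2 window. Of the Lipe windows, the first held 1 E-box 155 bases before the start. Among all 32851 promoter windows of the same length, 16.3% held the hexamer, 0.0396% the full response element, 7.15% the E-box and 10.8% the C/EBP core. None of the 9 windows held the full response element, which says only that these letters are not in these windows.

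Across the 6 arrays 54.6% to 61.7% of probes were well above background, and the 75th percentile of the intensity lay between 380.0 and 471 units. Values below are log2 intensities relative to that percentile of the same array, and differences are GGCT-OE minus empty on the log2 scale. Slide 1 carried replicate 1 of each group and slide 2 the remaining 4 arrays, so each difference is also given within slides. Ggct, read by 1 mouse probe, was higher in GGCT-OE cells (0.62 ± 0.12, SE; limma adjusted p = 0.0111). The labels do not state the species of the vector's cDNA.

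Of the 10 genes, 4 were lower and 2 were higher in GGCT-OE cells, and 4 did not pass the test (limma, Benjamini-Hochberg adjusted p under 0.05 over all 23774 genes tested). Over those 23774 genes 34.8% were called, 17.3% as lower and 17.5% as higher. Lpl and Plin2 showed the largest decreases of the 10, each a little over 2-fold, and Acsl1 and Pparg were lower by smaller amounts. Dgat2 and Fabp5 were higher. Dgat1, Pnpla2, Lipe and Cebpd were not called. The median difference over the 10 genes was -0.13, beside 0.02 over all genes tested, and the median absolute difference was 0.54, beside 0.29. In the 6 called genes every GGCT-OE array lay on one side of every empty vector array, and 49.3% of all genes tested were separated in this way. With the replicate number as a block 4 of the 10 genes were again lower and 2 higher, while 53.4% of all genes were called, 26.1% as lower and 27.3% as higher. Without both arrays of replicate 3 only Lpl and Plin2 were called lower and only Dgat2 higher, and over all genes that run called 1150 lower and 771 higher, against 4110 and 4164 with all arrays.

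**Figure D1:**
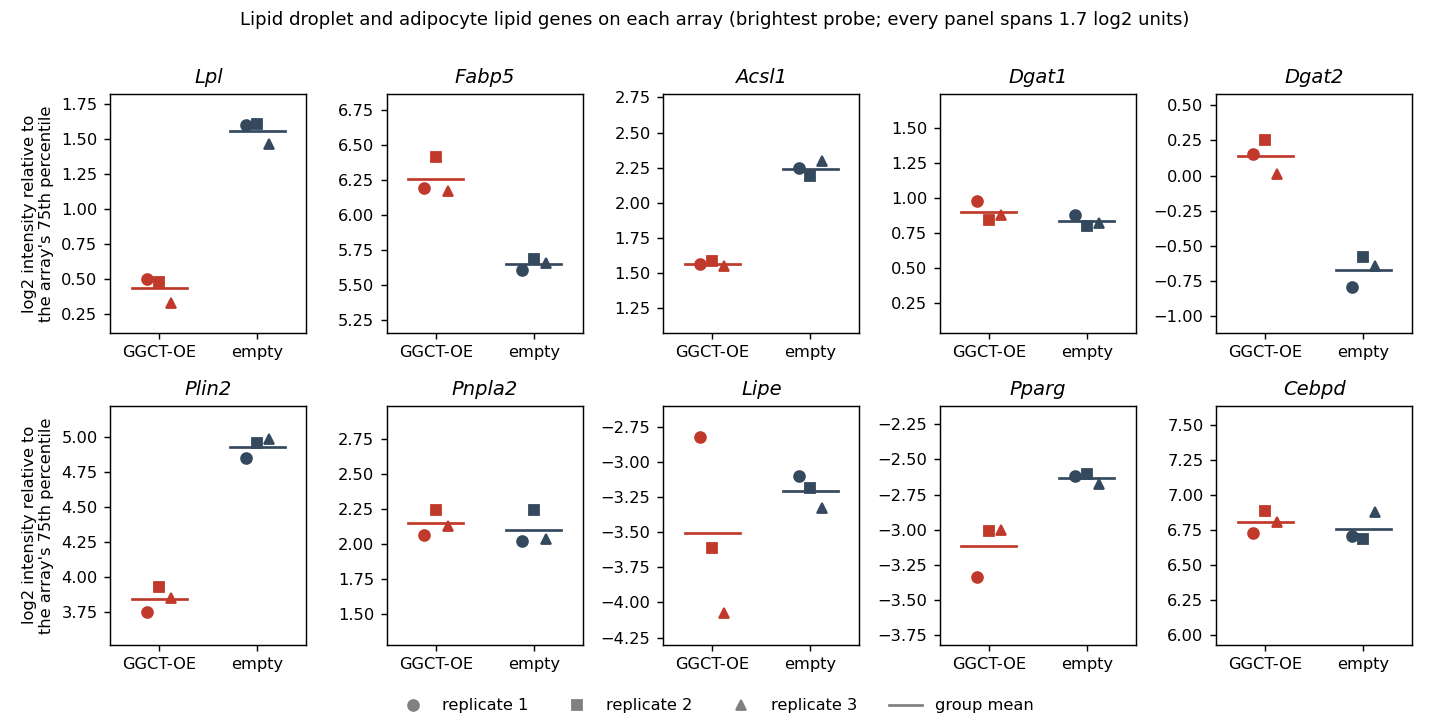
Log2 intensity relative to the array's 75th percentile for the brightest probe of each of the 10 genes (vertical axes, each spanning 1.7 log2 units) in GGCT-OE cells (left in each panel) and empty vector cells (right). Symbols are the 3 replicates and lines the group means. The groups are apart for Lpl, Fabp5, Acsl1, Dgat2, Plin2 and Pparg, and the GGCT-OE arrays of Lipe spread from -4.08 to -2.82.

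Lpl encodes lipoprotein lipase, the secreted enzyme that frees fatty acids from circulating triglyceride. Its brightest probe stood at 0.50, 0.48 and 0.33 in GGCT-OE cells (replicates 1 to 3), against 1.60, 1.61 and 1.46 in empty vector cells. All 3 GGCT-OE arrays lay below all 3 empty vector arrays, and the groups did not overlap. The means were 0.44 ± 0.09 in GGCT-OE cells and 1.56 ± 0.08 in empty vector cells (SD, n = 3 each). Lpl was thus 2.18-fold lower, a difference of -1.12 ± 0.09 (SE, limma adjusted p = 0.000500), with -1.10 on slide 1 and -1.13 on slide 2. Among all genes tested this difference was at percentile 4.69, counted from the most negative.

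Both dimmer Lpl probes were also lower in GGCT-OE cells. One stood at -3.52, -3.05 and -3.41 in GGCT-OE cells, against -2.73, -2.14 and -2.65 in empty vector cells, a difference of -0.82 (adjusted p = 0.0219 in a limma fit over all 31110 probes above background, of which 35.2% were called). The other stood at -4.19, -4.37 and -4.00 in GGCT-OE cells, against -3.76, -3.39 and -3.60 in empty vector cells, a difference of -0.60 (adjusted p = 0.0193). These probes, at intensities of 22.2 to 96.6 units, differed by less than the brightest one, and the mean over the 3 probes differed by -0.85 (adjusted p = 0.00276).

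Fabp5 encodes a cytosolic carrier of fatty acids. Its probe stood at 6.19, 6.41 and 6.17 in GGCT-OE cells, against 5.61, 5.69 and 5.66 in empty vector cells. Every GGCT-OE array lay above every empty vector array. Fabp5 was 1.52-fold higher, a difference of 0.60 ± 0.10 (SE, limma adjusted p = 0.00517), with 0.58 on slide 1 and 0.62 on slide 2. The call was lost when a pair of arrays was left out, replicate 2 (0.54, adjusted p = 0.0541) or replicate 3 (0.65, adjusted p = 0.0803). RefSeq lists a Fabp5-like pseudogene, Fabp5l2, and whether the probe reads it was not tested.

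Acsl1 encodes a long-chain acyl-CoA synthetase, which activates fatty acids for esterification or oxidation. Its brightest probe stood at 1.56, 1.58 and 1.55 in GGCT-OE cells, against 2.24, 2.19 and 2.30 in empty vector cells. The replicates lay close together and the groups did not overlap. Acsl1 was 1.60-fold lower, a difference of -0.68 ± 0.08 (SE, limma adjusted p = 0.00144), with -0.68 on each slide. Its other probe stood at -1.46, -1.28 and -1.25 in GGCT-OE cells, against -0.92, -0.50 and -0.59 in empty vector cells, and differed by a near-equal -0.66 (adjusted p = 0.0121 over all probes). Without both arrays of replicate 3 the brightest probe missed the threshold (-0.64, adjusted p = 0.0628).

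The 2 diacylglycerol acyltransferases, unrelated in sequence, both catalyse the last step of triglyceride synthesis. Dgat2 stood at 0.15, 0.26 and 0.01 in GGCT-OE cells, against -0.80, -0.58 and -0.64 in empty vector cells. All GGCT-OE arrays lay above all empty vector arrays. Dgat2 was 1.76-fold higher, a difference of 0.82 ± 0.10 (SE, limma adjusted p = 0.00238), with 0.95 on slide 1 and 0.75 on slide 2. It had the largest increase of the 10 genes, at percentile 93.5 of all differences.

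Dgat1 stood at 0.98, 0.84 and 0.88 in GGCT-OE cells, against 0.88, 0.80 and 0.82 in empty vector cells. The groups overlapped, and the difference of 0.07 (95% interval -0.13 to 0.26, limma adjusted p = 0.578) did not exceed the spread between replicates. It was 0.10 on slide 1 and 0.05 on slide 2.

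Plin2 encodes perilipin 2, the coat protein of lipid droplets in most cells other than fat cells. Its brightest probe stood at 3.75, 3.93 and 3.85 in GGCT-OE cells, against 4.85, 4.95 and 4.99 in empty vector cells. The highest GGCT-OE array lay well below the lowest empty vector array. Plin2 was 2.12-fold lower, a difference of -1.08 ± 0.09 (SE, limma adjusted p = 0.000515), with -1.10 on slide 1 and -1.08 on slide 2. Its other probe stood at -0.39, -0.31 and -0.45 in GGCT-OE cells, against 0.55, 0.61 and 0.51 in empty vector cells, and differed by -0.94 (adjusted p = 0.000594 over all probes). Lpl and Plin2 were the 2 genes of the 10 called at 2-fold or more, both lower. Of all genes tested 8.93% were called at 2-fold or more in either direction and 5.30% as lower.

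Neither lipase of the droplet was called. Pnpla2 encodes adipose triglyceride lipase, which takes the first fatty acid from stored triglyceride. It stood at 2.07, 2.24 and 2.13 in GGCT-OE cells, against 2.02, 2.24 and 2.04 in empty vector cells, and the groups overlapped. The difference was 0.05 (95% interval -0.19 to 0.29, limma adjusted p = 0.755), 0.04 on slide 1 and 0.05 on slide 2.

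Lipe encodes hormone-sensitive lipase, which acts next, on diacylglycerol. Its dim probe stood at -2.82, -3.61 and -4.08 in GGCT-OE cells, against -3.10, -3.19 and -3.33 in empty vector cells. The GGCT-OE arrays were spread on both sides of the empty vector arrays, with an SD of 0.63, against 0.12 in empty vector cells. The difference was -0.30 (95% interval -1.05 to 0.45, limma adjusted p = 0.505). It was 0.27 on slide 1 and -0.59 on slide 2. Without replicate 1 of the GGCT-OE group it was -0.64 and passed the threshold (adjusted p = 0.0375). With all arrays the interval runs on both sides of 0.

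Pparg encodes PPAR-gamma. Its probe, at 40.3 to 69.9 intensity units but well above background on all 6 arrays, stood at -3.34, -3.01 and -3.00 in GGCT-OE cells, against -2.62, -2.60 and -2.68 in empty vector cells. The groups did not overlap, and replicate 1 was the lowest of the GGCT-OE arrays. Pparg was 1.40-fold lower, a difference of -0.48 ± 0.12 (SE, limma adjusted p = 0.0217), with -0.72 on slide 1 and -0.36 on slide 2. It was the least stable of the 6 calls. Leaving out 1 empty vector array lost the call, with adjusted p of 0.0555 for replicate 1 (-0.48), 0.0737 for replicate 2 (-0.47) and 0.0637 for replicate 3 (-0.50). The same held when a pair of arrays was left out, at 0.121 for replicate 2 (-0.52) and 0.128 for replicate 3 (-0.56). Testing dim probes too gave 0.0886.

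Cebpd encodes C/EBP-delta. It stood at 6.73, 6.88 and 6.80 in GGCT-OE cells, against 6.70, 6.68 and 6.87 in empty vector cells, and the groups overlapped. The difference was 0.05 (95% interval -0.17 to 0.28, limma adjusted p = 0.711), 0.03 on slide 1 and 0.07 on slide 2. Exact 2-sided permutation tests gave p = 0.1, the smallest possible here, for each of the 6 called genes, 0.2 for Dgat1 and 0.5 for Pnpla2, Lipe and Cebpd.

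**Figure D2:**
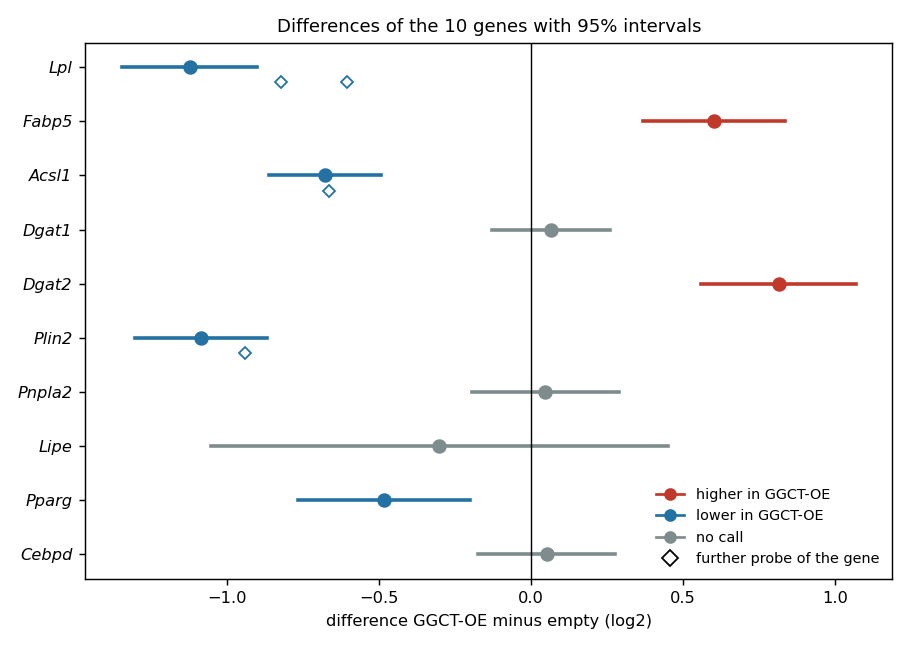
Difference GGCT-OE minus empty (horizontal axis, log2) of the brightest probe of each gene, with its 95% interval from limma, and of further probes of the same gene (open diamonds). Intervals of Lpl, Acsl1, Plin2 and Pparg lie below 0, those of Fabp5 and Dgat2 above 0, and all 4 further probes lie on the same side as the brightest one.

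Transcripts of the enzymes and proteins around these genes moved in both directions. Besides Plin2, 11 of 18 listed genes of droplet proteins could be tested, of which 4 were lower and 3 were higher (median 0.06). For this list and the lists and markers below, the shares over all 23774 genes tested were 17.3% called lower and 17.5% called higher. Plin4, another perilipin, was lower in GGCT-OE cells (-1.16 ± 0.16, limma adjusted p = 0.00279), as was Spg20, whose product spartin sits on droplets (-0.78 ± 0.16). Bscl2, which encodes seipin, a protein of the sites where droplets form, was higher (0.63 ± 0.11, and 0.34 with normexp background). Plin3 was not called (-0.24, adjusted p = 0.249, but 0.0235 with the replicate number as a block). Plin1, the perilipin of fat cells, was not above background on any array. Without both arrays of replicate 3 Plin4 (adjusted p = 0.0628), Spg20 (adjusted p = 0.107) and Bscl2 (adjusted p = 0.107) missed the threshold, and the last pair did so without both arrays of replicate 2 as well (adjusted p = 0.0786 and 0.0725).

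Of 17 genes of triglyceride synthesis other than the Dgat pair, all tested and 16 of them above background on all 6 arrays, 5 were higher and 4 lower (median 0.15). Agpat2, an acyltransferase of phosphatidic acid synthesis, was 2.46-fold lower in GGCT-OE cells (-1.30 ± 0.09, limma adjusted p = 0.000252). Gpat3, an acyltransferase of the first step, was 2.08-fold higher (1.05 ± 0.11), and Agpat3 was 1.74-fold higher (0.80 ± 0.08). These 3 passed in every alternative run. Among 7 lipolysis genes tested, Lipa, the acid lipase of lysosomes (-0.76 ± 0.08), and Abhd6, a monoacylglycerol lipase (-1.42 ± 0.15, and -0.57 with normexp background), were lower. Hilpda, an inhibitor of Pnpla2, was higher (0.36 ± 0.09), but 10 of 21 alternatives lost that call, with adjusted p up to 0.180 and a difference of 0.21 for the mean of its probes. Those included each run without GGCT-OE replicate 2 or 3 or without 1 of the empty vector arrays. Abhd5, the co-activator of Pnpla2, was not called (0.06, adjusted p = 0.876). Abhd5, G0s2 and Hilpda were listed among the droplet proteins too, so the higher call of Hilpda is counted in both lists.

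Fatty acid uptake, binding and activation had 5 genes higher and 5 lower of 14 tested (median -0.17). Among genes tied to lipoprotein lipase, Sel1l, an adaptor of endoplasmic reticulum quality control that mouse Lpl needs to mature, was lower in GGCT-OE cells (-0.86 ± 0.09, limma adjusted p = 0.00106). Lmf1, which also acts in the maturation of the lipase, was higher (0.32 ± 0.09, adjusted p = 0.0293), a call lost in 10 of 21 alternatives, among them each run without 1 array other than empty vector replicate 3 (adjusted p up to 0.179). Angptl4, a secreted inhibitor of the lipase and known as a PPAR target, was higher (0.88 ± 0.11, adjusted p = 0.00200, but 0.0514 without both arrays of replicate 3). Gpihbp1, its endothelial anchor, was not called (-0.05, adjusted p = 0.924). The transporter gene Slc27a1 was lower (-1.03 ± 0.13, adjusted p = 0.00255, but 0.0628 without both arrays of replicate 3), as was the synthetase gene Acsl6 (-1.60 ± 0.16, but -0.86 with normexp background and -0.96 as the mean of its probes). Cd36, a fatty acid receptor, and Fabp4, the fat cell carrier, were not above background on any array.

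**Figure D3:**
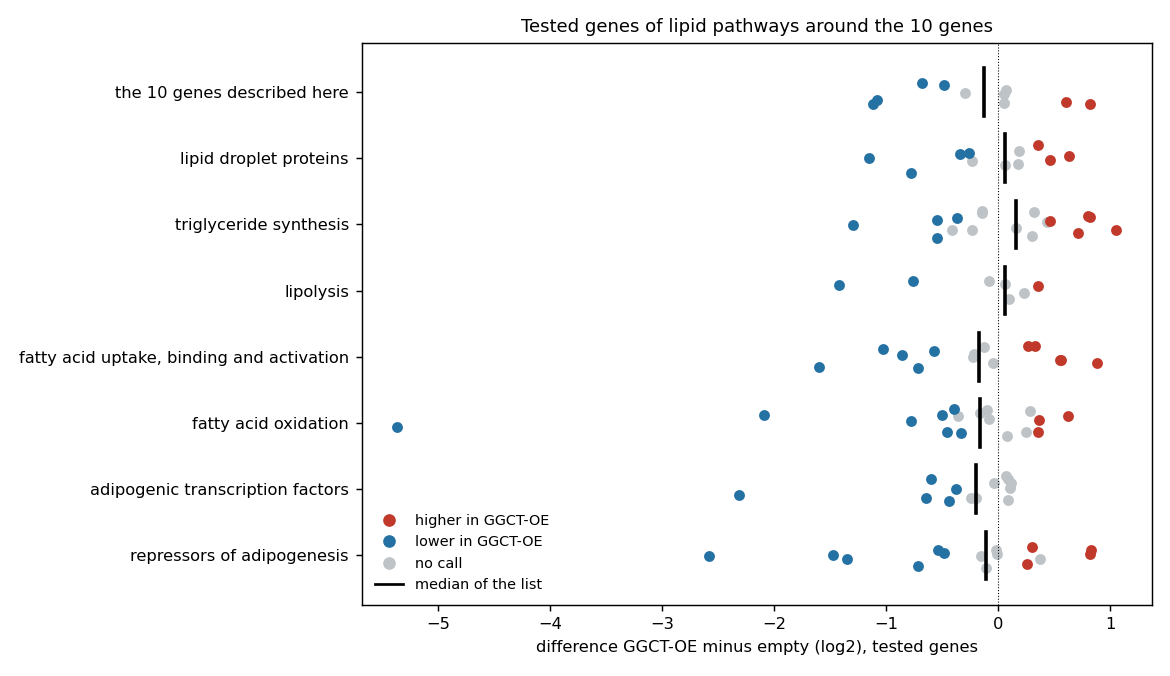
Difference GGCT-OE minus empty (horizontal axis, log2) of each tested gene (points) in the 10 genes described here and in 7 lists of lipid pathway genes, with the median of all tested genes of a list (black bars), Ppargc1a and Hes1 included. Medians lie between -0.20 and 0.15, and most lists hold genes on both sides of 0.

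In fatty acid oxidation 6 of the 16 genes above background on all 6 arrays were lower and 3 were higher (median -0.13). Ppargc1a, a co-activator of PPAR factors, was well above background on all 3 empty vector arrays and on no GGCT-OE array. It passed the filter through the empty vector arrays alone and is therefore kept out of that count. With the background as processed it was at least 9.69-fold lower in GGCT-OE cells. That bound sets the mean of the empty vector arrays against, per GGCT-OE array, the lowest value well above background or the probe's own value if higher, and with normexp background the difference was -1.60. Pdk4, a kinase that restrains pyruvate oxidation and a known PPAR target, was 4.25-fold lower (-2.09 ± 0.14, adjusted p = 0.000251). The carnitine palmitoyltransferase genes moved both ways. Cpt1c was higher (0.62 ± 0.09), a call lost without both arrays of replicate 3 (adjusted p = 0.0907). Cpt1a was higher (0.35 ± 0.10, adjusted p = 0.0337) and Cpt1b lower (-0.45 ± 0.11, adjusted p = 0.0201, but -0.18 and no call with normexp background), and Cpt2 was not called (-0.36, adjusted p = 0.0642, but 0.00785 with replicate numbers blocked). The Cpt1a call was lost in 11 of 21 alternatives, among them each run without 1 array, and the Cpt1b call in 7, among them the runs without GGCT-OE replicate 3 or empty vector replicate 2 or 3.

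Of 13 tested genes listed as adipogenic transcription factors, Pparg and Cebpd aside, 5 were lower and 0 higher in GGCT-OE cells (limma, median -0.20). Over all genes tested 17.3% were called lower and 17.5% higher. At an unadjusted p under 0.05 the counts of this list were the same, 5 and 0. Whether each listed gene, Cebpg among them, promotes adipogenesis was not tested. Egr2, a zinc finger factor that acts early in mouse adipogenesis, was 4.97-fold lower (-2.31 ± 0.12, adjusted p = 8.86e-05). Klf4 was lower (-0.60 ± 0.11, adjusted p = 0.00825, but 0.120 without both arrays of replicate 3), as was Cebpg (-0.65 ± 0.13, adjusted p = 0.0115, but 0.0799 and 0.115 without both arrays of replicate 2 or 3). Cebpb, the partner of Cebpd in early differentiation, differed by -0.44 ± 0.13 (adjusted p = 0.0374), a call lost in 9 of 21 alternatives with adjusted p up to 0.233. Those included quantile normalization and each run without GGCT-OE replicate 2 or 3 or without 1 empty vector array. Ebf1, the last of the 5, lost its call in 12 of 21 alternatives, with limma adjusted p up to 0.211. Its difference ranged from -0.44 to -0.27, and every run that left out arrays lost the call. Cebpa, which follows Pparg in fat cells, was not above background on any array. The partner receptor genes Rxra (0.08) and Rxrb (0.07) and the relative Ppard (0.11) were not called.

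Of 15 listed repressors of adipogenesis 14 were above background on all 6 arrays, of which 5 were lower and 4 higher (median -0.06). The remaining gene, Hes1, a Notch target, was above background on 2 of the 3 GGCT-OE arrays and on all empty vector arrays, and passed the filter through the empty vector arrays. It stood at -4.59, -3.64 and -4.45 in GGCT-OE cells, against -1.88, -1.52 and -1.54 in empty vector cells. The size of that difference depended on the background correction, with -2.58 as processed and -1.17 with normexp background. Ddit3, a C/EBP relative that blocks the family, was 2.79-fold lower (-1.48 ± 0.16), whereas Gata2 was 1.78-fold higher (0.83 ± 0.10). Dlk1, the preadipocyte factor, was not called (-0.11, limma adjusted p = 0.758).

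The counts in these lists depended on the number of arrays. Over 9 runs that left out 1 array or a same-numbered pair, the droplet proteins had 0 to 4 genes lower and 0 to 3 higher in GGCT-OE cells, triglyceride synthesis 1 to 4 lower and 2 to 7 higher, and lipolysis 2 lower and 0 to 1 higher. Uptake, binding and activation had 2 to 5 lower and 0 to 3 higher, oxidation 2 to 8 lower and 0 to 2 higher, the adipogenic factors 1 to 4 lower and 0 higher, and the repressors 2 to 6 lower and 1 to 3 higher. These ranges include Ppargc1a and Hes1 where they were tested. Leaving out any 1 of the 6 arrays moved at least 1 of these counts by more than 1.5 times. The share of all genes called fell in these runs too, except on slide 2 alone. Blocking on replicate numbers gave 5 lower and 3 higher for the droplet proteins, 4 and 7 for triglyceride synthesis, 2 and 2 for lipolysis, 7 and 5 for uptake, binding and activation, 8 and 5 for oxidation (Ppargc1a included), 7 and 0 for the adipogenic factors and 6 and 4 for the repressors (Hes1 included), beside the rise over all genes given above.

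Fat cell markers were mostly below detection. Of 8 adipocyte markers, Adipoq, Fabp4, Plin1 and Cidec were not above background on any array, Cfd and Slc2a4 were so on 1 GGCT-OE array each and on no empty vector array, and Retn and Lep were so on all 6 arrays and were not called (-0.58 and -0.03). The summed intensity of the 8 probes, in units of the array's 75th percentile, was 0.540 to 0.680 in GGCT-OE cells and 0.650 to 0.695 in empty vector cells. All 8 fibroblast markers were above background on all arrays, with a sum of 1522 to 1902 in GGCT-OE cells and 1967 to 2401 in empty vector cells. Col1a1 (-0.99), Pdgfrb (-0.94) and Col1a2 (-0.69) were lower and Pdgfra (0.86) was higher, and with replicate numbers blocked 5 were lower and 1 higher. Without both arrays of replicate 3 Col1a2 and Pdgfra missed the threshold (adjusted p = 0.101 for each), as did Col1a2 without those of replicate 2 (adjusted p = 0.0581). Of 9 markers of macrophages, endothelium and epithelium, 4 were above background on all 6 arrays, of which Krt8 (1.18) and Pecam1 (0.43) were higher and Cd68 (-0.27) was lower in GGCT-OE cells. Cdh5, an endothelial cadherin, was above background on all 3 GGCT-OE arrays and on no empty vector array. It passed the filter through the GGCT-OE arrays alone. With the background as processed Cdh5 was at least 2.18-fold higher, but its smallest log2 difference over 20 alternatives was 0.43. With normexp background Krt8 differed by 0.59. The Pecam1 call was lost in 12 of 21 alternatives, among them each run without 1 array other than empty vector replicate 1, and the Cd68 call in 14, among them every run that left out arrays. The Krt8 call was lost without both arrays of replicate 2 (adjusted p = 0.0514) or 3 (adjusted p = 0.0709). The 9 markers had sums of 2.51 to 3.94 in GGCT-OE cells and 2.16 to 2.85 in empty vector cells. Ptprc, Adgre1, Epcam and Cdh1 were not above background on any array. The part of these markers in the differences above was not tested, and in bulk RNA fewer cells with a transcript and less of it per cell cannot be told apart.

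Lpl, Plin2 and Dgat2 passed the threshold in all 21 other ways of processing the data. Their differences ranged from -1.17 to -0.85 for Lpl, from -1.13 to -1.01 for Plin2 and from 0.69 to 0.89 for Dgat2. Acsl1 passed in 20 (-0.71 to -0.60), Fabp5 in 19 (0.53 to 0.65) and Pparg in 15 (-0.56 to -0.33). Dgat1, Pnpla2 and Cebpd passed in none of them.

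**Figure D4:**
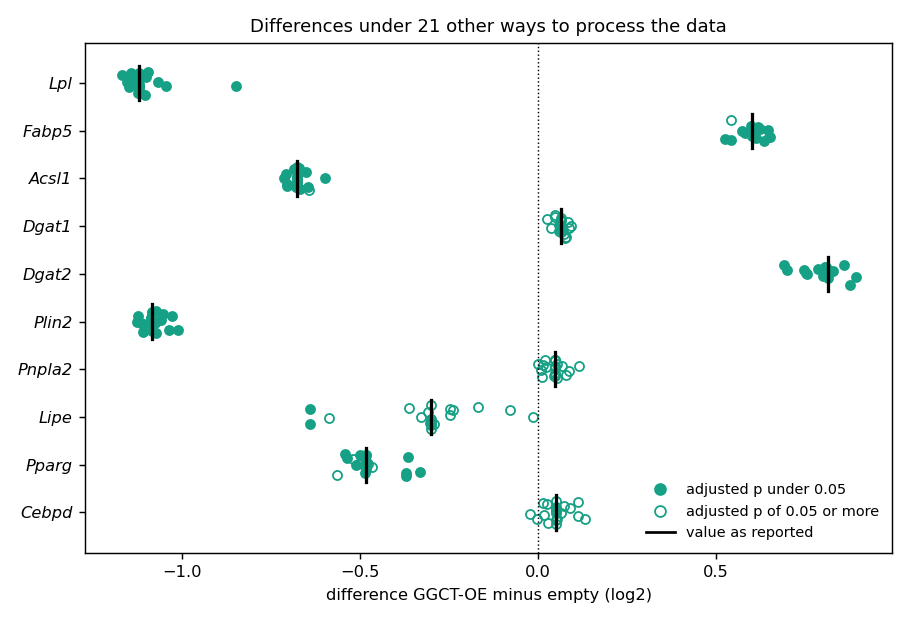
Difference GGCT-OE minus empty (horizontal axis, log2) of each gene under 21 other ways of processing the data (points, filled where the adjusted p was under 0.05) and as reported (black bars). Lpl, Plin2 and Dgat2 are filled throughout, and the Lipe points spread from -0.64 to -0.01.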

How the data were processed

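Per the file headers, the authors extracted intensities from 1-colour arrays with version 12.1.0.3 of Agilent Feature Extraction; the processed intensity is background-subtracted and detrended within an array. The deposited log2 table of the authors equalled the log2 processed intensity minus a constant per array (column medians -3.88 to -3.70), so its scale and direction are known and no centring over arrays was seen.

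Of 62976 spots, 3671 were controls and not used, as were 578 marked as outliers over the 6 arrays, and repeated spots were averaged. No spot was saturated. Accessions matched to RefSeq (assembly GRCm38.p6) named 34504 of 56570 probes; the array's grid names another build, so no probe coordinates are given. The 75th percentile of the log2 intensity was subtracted per array. A gene was its brightest probe, tested if 1 or both groups had it well above background on all 3 arrays. Differences were tested 2-sided by lmFit and eBayes of limma (3.58.1, under R 4.3.3) without a block, adjusted by Benjamini-Hochberg over all genes. The procedure was tested on simulated data in which the arrays were independent. That test does not cover the correlation between arrays given below. The number of arrays limits the precision.

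The genes and lists were chosen with earlier results of these data known. The text names the 10 genes on every probe, up to 5 called genes per list with the smallest p, Ggct, and Plin1, Fabp4, Adipoq, Cebpa, Cebpb and Cd36; other list genes and markers named were chosen after their values were seen. Ldaf1 was not matched to a probe. Deviations from the group means correlated across genes between arrays of the same number, at 0.731 for number 1, 0.453 for 2 and 0.358 for 3. Between unlike numbers on slide 2 the values were 0.342 (GGCT-OE 2 with empty vector 3) and 0.299 (GGCT-OE 3 with empty vector 2). Slide and number overlap in part, so pairing by number and a shared slide cannot be told apart here. The titles' numbers were taken to pair the samples. The alternatives were other scalings, filters, probe summaries and variance models, normexp background (offset 50, on median spot signals, since the mean column is not among those used here), the number or slide as a block, the deposited log2 values, and leaving out arrays.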

Additional observations from a re-analysis of the deposited data

How the results depend on the processing

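With the replicate number as a block the adjusted p was 0.000951 for Lpl, 0.00112 for Plin2, 0.00248 for Acsl1, 0.00314 for Dgat2, 0.00424 for Fabp5 and 0.0192 for Pparg, and the pairing changed no call among the 10 genes. Over all genes 6490 were higher and 6195 lower with that block, 6562 and 6191 when slides were blocked, 6633 and 6193 with array weights, and 2218 and 2493 with no filter on dim probes, against 4164 and 4110 as reported. With no filter Pparg (-0.48) missed the threshold. With array weights Lipe (-0.64) passed it and Cebpd turned to -0.00060, with no call. In 8 runs without 1 array or without both arrays of replicate 2 or 3, the differences ranged from -0.71 to -0.64 for Acsl1, from 0.53 to 0.65 for Fabp5, from -0.56 to -0.37 for Pparg, from -0.000096 to 0.12 for Pnpla2, from -0.64 to -0.014 for Lipe and from -0.022 to 0.11 for Cebpd. Of the 10 genes, 1 to 2 were called higher and 2 to 5 lower, and their median ranged from -0.17 to 0.020 (0.020 without GGCT-OE replicate 3). Of all genes, 771 to 3776 were called higher and 1150 to 3994 lower, and on slide 2 alone, without replicate 1, 4607 and 4553. The median of all genes stayed between -0.02 and 0.03 under every scaling and setting. The cause of these shifts was not tested. Dim probes (Lipe, Pparg and both further Lpl probes) lie closest to background, where differences are least precise.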
